A study of Mus musculus with 18 samples.

Results

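Amino acid transporters of the Slc1a, Slc3a, Slc6a, Slc7a, Slc36a, Slc38a and Slc43a families were followed through 6 groups of mouse liver. Members were all genes of the deposited table whose symbol begins with one of these family names followed by a number and whose estimate had the status OK in every group. This gave 62 of 37303 genes, of which 61 encode carriers or their heavy chains. The remaining one, Slc7a6os, is not a transporter, only carries the name of its neighbour Slc7a6, and was kept because the rule takes it. A total of 29 members, 28 of them transporters, had a level over 1 FPKM (fragments normalised to transcript length and library size) in at least 1 group and are described singly.

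The study asked how liver responds to the amino acid depletion caused by asparaginase (ASNase) when either GCN2 or ATF4 is missing. Poly-A RNA was sequenced from livers of wild type (WT) mice, mice with a Gcn2 deletion (Gcn2-/-) and mice with an Atf4 deletion (Atf4-/-), all of the C57BL/6J strain background and 8 to 16 weeks old by their age labels. Each strain received 8 daily intraperitoneal injections of ASNase (Elspar, 3 IU per gram body weight) or of phosphate buffered saline (PBS), and livers were taken 7.5 h after the last one. Groups were thus WT PBS, WT ASNase, Gcn2-/- PBS, Gcn2-/- ASNase, Atf4-/- PBS and Atf4-/- ASNase, with 3 mice in each. Both deletions affect the whole body and not the liver alone. Males made up 1 of 3 mice in WT PBS, Gcn2-/- PBS and Gcn2-/- ASNase and 2 of 3 in WT ASNase, Atf4-/- PBS and Atf4-/- ASNase, and the pooled values cannot be split by sex.

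Amino acids enter and leave hepatocytes through carriers that couple transport to sodium, protons or chloride, or that exchange one amino acid for another, and some of the latter need a heavy chain (Slc3a1 or Slc3a2) to reach the membrane. ASNase hydrolyses asparagine and, more slowly, glutamine in the circulation. When amino acids run short the kinase GCN2 phosphorylates eIF2, translation of ATF4 increases, and ATF4 with its dimer partners binds C/EBP-ATF response elements, among others of carrier genes such as Slc7a11, Slc3a2, Slc7a5, Slc7a1, Slc1a4 and Slc38a2.

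The table holds 1 FPKM value per gene and group, pooled over the 3 libraries of that group, with an interval around it. Values of single libraries were not used here, so no SD and no p-value can be given, and every comparison rests on the intervals. These were wide. The median distance from the value to its upper bound was 59.5% to 65.0% of the value among the 29 members, depending on the group, and 3 to 6 members per group had a lower bound at 0. Of 10 hepatocyte markers, 8 had the status OK in all groups, summed to 13236 to 26968 FPKM per group and were never at 0. The other two lacked that status and are listed at 0 in 1 group each, Serpina1a in Atf4-/- PBS and Fga in Atf4-/- ASNase. Markers of other cells were present too, with summed levels of 183 to 380 FPKM for Kupffer cells and macrophages, 98.7 to 156 for sinusoidal endothelium, 85.2 to 142 for stellate cells, 20.3 to 78.5 for adipose tissue and 20.1 to 39.9 for cholangiocytes. Neutrophil markers summed to 1.64 to 16.7 FPKM, with Ly6g at 0 in 5 groups, erythroid markers (4 of 6 matched) to 3.14 to 37.3, and B and T cell markers to 0.438 to 4.19. Skeletal muscle markers summed to 833 and 1196 FPKM in WT PBS and WT ASNase, 5.93 and 9.03 in Gcn2-/- PBS and Gcn2-/- ASNase (Pvalb at 0 in both), and 66.6 and 144 in Atf4-/- PBS and Atf4-/- ASNase. Lung epithelium markers reached 132 FPKM in WT PBS and no more than 2.05 elsewhere. Pancreatic acinar markers summed to 296 FPKM in Atf4-/- ASNase, 51.4 in WT ASNase and 4.94 to 14.1 in the other groups, with 5 of 7 at 0 in both Gcn2-/- groups. Atf4 itself was at 50.4, 63.1, 60.04 and 68.1 FPKM in the WT and Gcn2-/- groups and at 32.3 and 29.3 in Atf4-/- PBS and Atf4-/- ASNase. Eif2ak4, the gene of GCN2, lay between 2.19 and 3.14 FPKM in all 6 groups. These gene totals do not show which part of either transcript the alleles lack, so they check the labels only in part. The study itself reported both deletions from read density plots, as absence of a Gcn2 exon and of Atf4, and also assessed Atf4 by RT-qPCR. In whole liver, fewer cells of a type and less RNA per cell cannot be told apart.

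Across the 61 transporters most of the mRNA came from a pair of sodium coupled neutral amino acid carriers, Slc38a3 and Slc38a4. Together they made up 70.9% of the summed transporter FPKM with PBS and 71.0% with ASNase in WT, 75.0% and 59.1% in Gcn2-/-, and 68.4% and 60.8% in Atf4-/-. Their summed level stood at 1175 FPKM in PBS-treated and 1295 in ASNase-treated WT liver, at 1526 and 713 in Gcn2-/- and at 1218 and 822 in Atf4-/- liver. The other 59 genes together stayed within a narrow band, at 482, 529, 508, 494, 563 and 529 FPKM in the same order. Below the leading pair, Slc7a2 and Slc6a13 stood at 95.3 and 96.1 FPKM in WT PBS, Slc1a2, Slc6a12, Slc38a10 and Slc38a2 between 35.1 and 44.8, and the remaining named transporters at 20.7 or less. When the 29 members were ranked by level, the intervals of neighbours in the order overlapped in 27 of 28 cases in WT PBS and in 28 of 28 in each other group. The exception was the step from Slc38a9 down to Slc7a6.

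**Figure D1:**
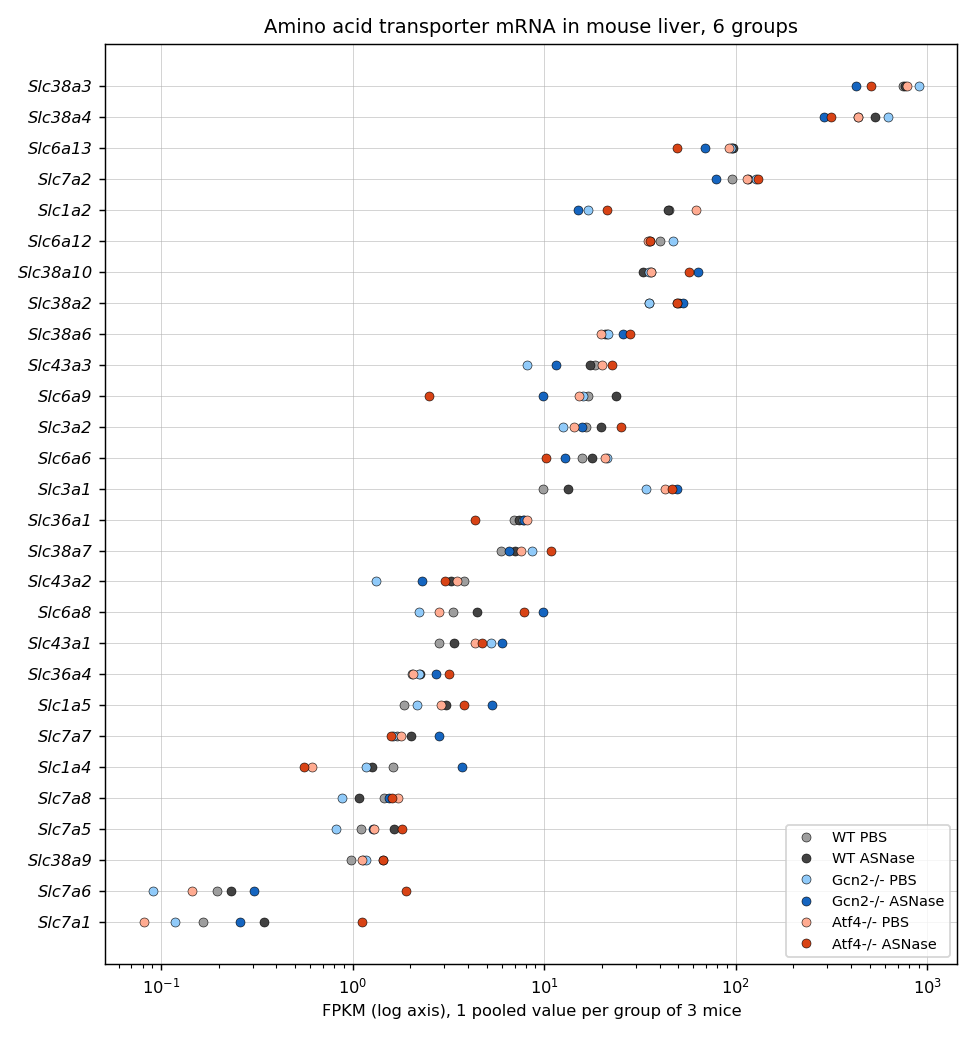
FPKM (log axis) of the 28 named transporters in the 6 groups, 1 pooled value per group of 3 mice, ordered by level in WT PBS. Slc38a3 and Slc38a4 lead in every group, and the Atf4-/- ASNase points of Slc7a6 (1.90), Slc7a1 (1.11) and Slc6a9 (2.51) and the Gcn2-/- ASNase point of Slc1a4 (3.72) lie apart from the rest of their rows.

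**Figure D2:**
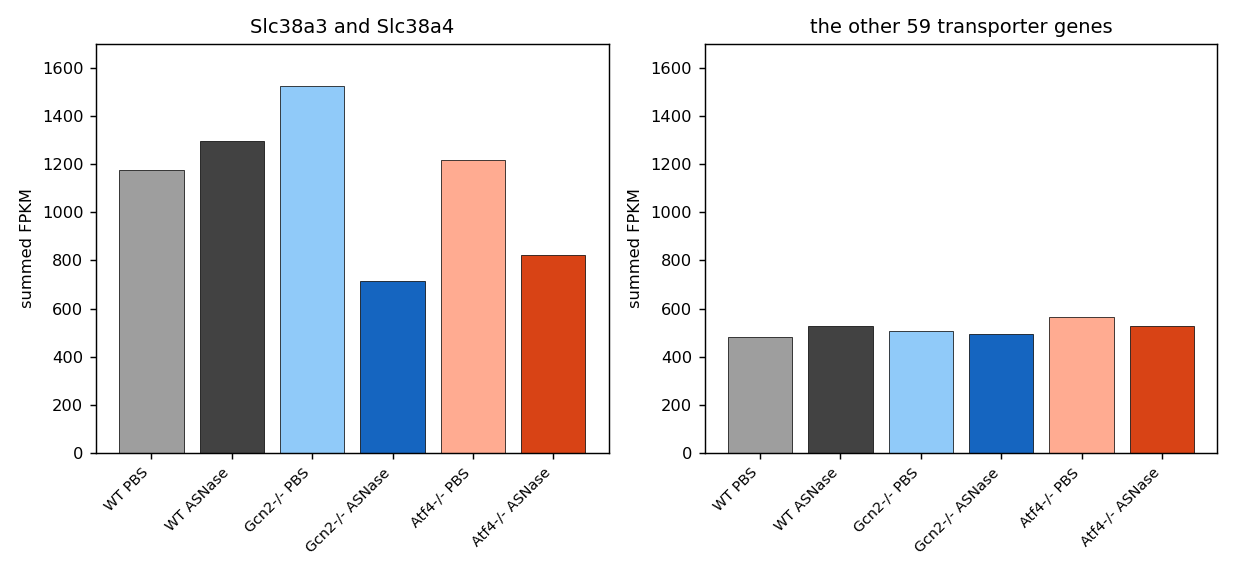
Summed FPKM per group of Slc38a3 and Slc38a4 (left) and of the other 59 transporter genes (right), on the same axis from 0. The leading pair is lowest in Gcn2-/- ASNase (713) and Atf4-/- ASNase (822), while the other genes lie between 482 and 563.

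Groups were compared in 8 pairs on log2(FPKM + 0.1), where low genes appear to differ less than they do. Genes were tested when both values were OK and above 0 and either exceeded 3 FPKM, and called when the log2 difference exceeded 1.5 in size and the intervals did not overlap. Under PBS, 0 of 20 members were called in Gcn2-/- against WT, where 1.04% of all genes tested were called, and 0 of 20 in Atf4-/- against WT, where 1.12% were. ASNase against PBS called 0 of 21 members in WT (0.881% of all genes), 0 of 21 in Gcn2-/- (3.69%) and 0 of 22 in Atf4-/- (7.37%). Under ASNase, 0 of 22 members were called in Gcn2-/- against WT (4.41% of all genes) and 0 of 22 in Atf4-/- against WT (8.25%). Between the knockouts under ASNase, 1 of 23 members, Slc1a4, was lower in Atf4-/- than in Gcn2-/-, where 2.29% of all genes were called lower. Slc1a4 exceeds 3 FPKM only in Gcn2-/- ASNase and is at 1.63 or less elsewhere, so it entered this comparison only through the group where it is high. With about 20 members tested and shares of this size over all genes, no count is read as particular to the transporters.

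The response to ASNase was also compared between strains, as the difference of the ASNase minus PBS differences. It was called when it exceeded 1.5 and also the combined error of the 4 values, the root of the summed squares of the distance from the middle to the edge of each interval on the log2 scale. Of 22 members tested, 1 responded more strongly upward in Gcn2-/- than in WT, again Slc1a4, with 2.13% of all genes called higher. Here too it was tested only because of its Gcn2-/- ASNase value, the same value that makes the difference, so the call is a description and no independent support. In Atf4-/- against WT 0 of 22 were called, with 6.56% of all genes called in either direction.

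Settings other than these named more members. Several carriers lie below 3 FPKM, and with a minimum of 1 FPKM the rule called 2 of 28 members higher after ASNase in Atf4-/- (Slc7a6 and Slc7a1, 2.46% of all genes), 1 of 29 higher in Atf4-/- than in WT under ASNase (Slc7a6, 2.26%) and 2 of 29 higher in Atf4-/- than in Gcn2-/- under ASNase (Slc7a6 and Slc7a1, 0.928%). The response rule with that minimum called 2 of 29 members higher in Atf4-/- than in WT (Slc7a6 and Slc7a1, 2.02%). Both genes exceed 1 FPKM only in Atf4-/- ASNase, with at most 0.345 in any other group, so they are described singly and were tested only through the group in which they were called higher, and these counts support nothing further. When the difference had to exceed the combined error in place of separate intervals, 1 of 20 members was called higher in Gcn2-/- than in WT under PBS (Slc3a1, 0.482% of all genes), 1 of 20 in Atf4-/- than in WT under PBS (Slc3a1, 0.42%), 1 of 22 in Gcn2-/- than in WT under ASNase (Slc3a1, 2.35%) and 1 of 22 in Atf4-/- than in WT under ASNase (Slc3a1, 3.42%). That condition also called 2 of 21 members higher after ASNase in Gcn2-/- (Slc6a8 and Slc1a4, 2.16%). Of the 2 groups compared there, both genes exceed 3 FPKM only in Gcn2-/- ASNase. They were thus tested only through the group in which they were called higher, and this count supports nothing further. Among all 15 possible pairs of groups, 4 of the 29 members had intervals that did not overlap in at least 1 pair. These were Slc1a4, Slc3a1, Slc7a1 and Slc7a6. Slc7a1 and Slc7a6 are among the 29 only through Atf4-/- ASNase, the group whose interval stands apart. The share over all genes was not computed, so this count is not read as particular to the transporters.

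**Figure D3:**
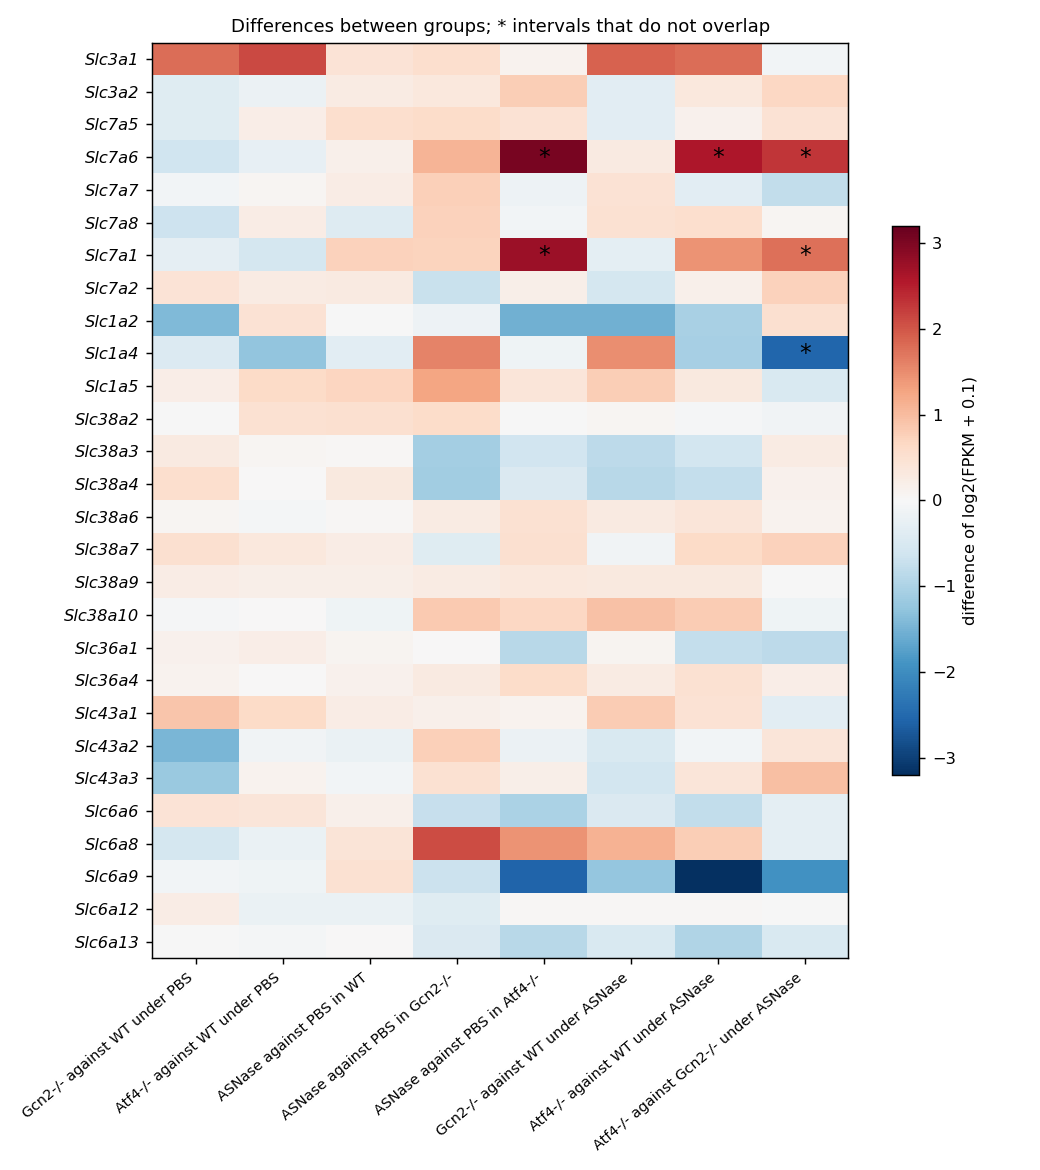
Differences of log2(FPKM + 0.1) of the 28 named transporters (rows, by role) in the 8 comparisons (columns), red for higher and blue for lower in the group named before "against". Stars mark intervals that do not overlap, in 6 cells, 3 of Slc7a6, 2 of Slc7a1 and 1 of Slc1a4.

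Slc1a4 (ASCT1, chr11:20302180-20332713 in GRCm38, minus strand) exchanges alanine, serine, cysteine and threonine. It was at 1.63 FPKM (interval 0.763 to 2.50) with PBS and 1.27 (0.560 to 1.97) with ASNase in WT, 1.18 (0.477 to 1.88) and 3.72 (1.73 to 5.71) in Gcn2-/-, and 0.617 (0.201 to 1.03) and 0.557 (0.174 to 0.939) in Atf4-/-. Gcn2-/- ASNase stood highest and both Atf4-/- groups lowest, and the Gcn2-/- ASNase interval was separate from those of both Atf4-/- groups. Under ASNase the log2 difference of Atf4-/- from Gcn2-/- was -2.54. The log2 difference of ASNase from PBS was 1.58 in Gcn2-/-, -0.34 in WT and -0.13 in Atf4-/-, so the Gcn2-/- response exceeded that of WT by 1.92 (combined error 1.67). With a pseudocount of 1 in place of 0.1 that difference was 1.33 and no longer met the limit.

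Promoter sequence was compared because Slc1a4 and several other members are known targets of ATF4. The search was for TGATGNAA, a core of the C/EBP-ATF response element, on both strands of RefSeq promoter windows (GRCm38.p6, 250 bases before to 50 after the start of transcription). Of the 29 members, 22 had a window and 7 did not, and 3 of 39 windows (7.69%) held a match, against 1304 of 32851 windows (3.97%) of all genes. The 3 windows are the only one of Slc1a4 and 2 of the 5 of Slc7a7, which overlap and share a match. A match in these letters is a description and no measure of binding. The stretches of 120 bases before the start are shown for the members with a match and for the 3 others with separate intervals, 5′ to 3′ on the strand of the gene, with matches in capitals. The Slc1a4 and Slc7a7 stretches run 4 and 7 bases past the start to complete the match.
Slc1a4 (chr11:20332710-20332833, minus strand): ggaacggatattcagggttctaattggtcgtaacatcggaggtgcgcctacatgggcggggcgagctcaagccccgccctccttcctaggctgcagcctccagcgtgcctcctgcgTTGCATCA
Slc7a7 (chr14:54417938-54418064, minus strand): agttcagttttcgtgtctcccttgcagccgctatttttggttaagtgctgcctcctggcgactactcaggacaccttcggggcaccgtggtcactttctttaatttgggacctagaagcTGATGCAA
Slc7a1 (chr5:148399905-148400024, minus strand): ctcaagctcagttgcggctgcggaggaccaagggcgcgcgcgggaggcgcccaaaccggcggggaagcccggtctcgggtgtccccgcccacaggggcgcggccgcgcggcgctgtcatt
Slc7a6 (chr8:106168734-106168853, plus strand): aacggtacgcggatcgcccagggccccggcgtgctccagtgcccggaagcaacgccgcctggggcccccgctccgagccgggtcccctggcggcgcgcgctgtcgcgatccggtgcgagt
Slc3a1 (chr17:85028227-85028346, plus strand): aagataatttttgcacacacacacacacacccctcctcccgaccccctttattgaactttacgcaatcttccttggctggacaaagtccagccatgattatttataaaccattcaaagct

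Slc1a4 carries the match on the opposite strand, directly at its start site, and Slc7a7 carries it in the forward sense at -1 from the start shown. The same letters lie at -243 from another of its starts, the window shown holds a second match at -141, outside the printed stretch, and 3 of its 5 windows hold none. The locus to which the table assigns Slc7a7 ends at position 54409472 of chromosome 14, short of the start shown. None of the windows of Slc7a1, Slc7a6 and Slc3a1 held the 8 letters. Slc7a7 (y+LAT1), a light chain of Slc3a2 that exports cationic amino acids, was at 1.71 FPKM in PBS-treated and 2.02 in ASNase-treated WT liver, at 1.62 and 2.83 in Gcn2-/- and at 1.78 and 1.59 in Atf4-/- liver, with every lower bound at 0. It too was highest in Gcn2-/- ASNase, by a log2 difference of 0.77 over Gcn2-/- PBS, within the intervals.

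**Figure D4:**
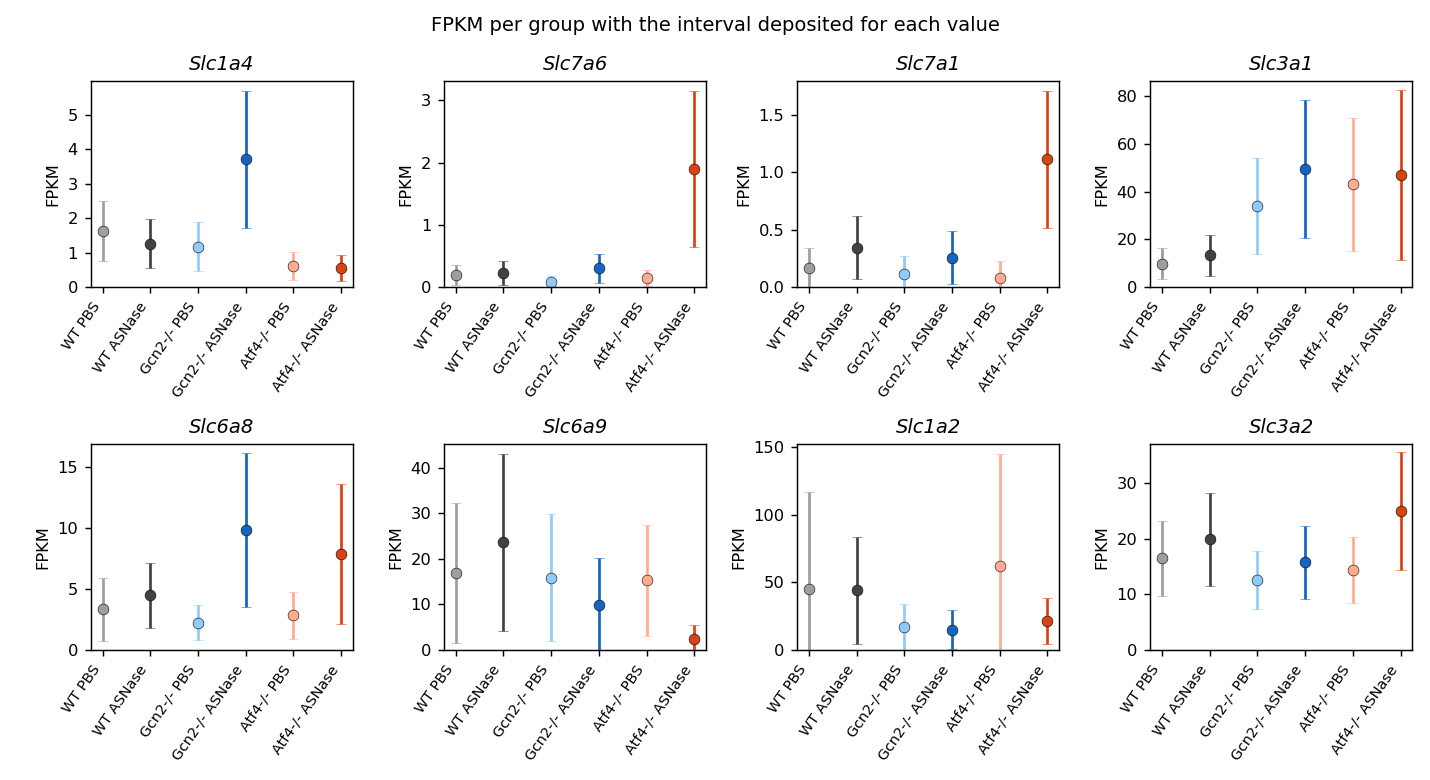
FPKM per group (points) with the interval given for each value (bars) for 8 members, each on its own axis from 0. Only Slc1a4, Slc7a6, Slc7a1 and Slc3a1 have intervals that are separate in any pair of groups, and those of Slc6a9 and Slc1a2 reach 0 in some groups.

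The other Slc1a members are a glutamine exchanger and a glutamate carrier. Slc1a5 (ASCT2), which exchanges glutamine and other neutral amino acids, was at 1.86 FPKM with PBS and 3.08 with ASNase in WT, 2.16 and 5.36 in Gcn2-/-, and 2.88 and 3.83 in Atf4-/-. Its ASNase value was the higher one in all 3 strains (log2 differences 0.69, 1.27 and 0.40), but all 6 intervals overlapped and the lower bound was 0 in WT PBS and Gcn2-/- PBS. Slc1a2 (GLT-1), a glutamate carrier of perivenous hepatocytes, was at 44.8 FPKM in PBS-treated and 44.0 in ASNase-treated WT liver, at 16.8 and 15.002 in Gcn2-/- and at 61.9 and 21.3 in Atf4-/- liver. The lower bound of each PBS group was 0 and the interval of Atf4-/- PBS ran up to 145, so none of these groups separated. In Atf4-/- the log2 difference of ASNase from PBS was -1.54, and in Gcn2-/- against WT it was -1.41 under PBS and -1.55 under ASNase.

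Other genes of perivenous hepatocytes were listed beside Slc1a2. The summed level of 10 such genes was 6459 FPKM with PBS and 6020 with ASNase in WT, 5262 and 3044 in Gcn2-/-, and 6763 and 1427 in Atf4-/-. After ASNase 1 of 8 tested fell in Gcn2-/- (Cyp1a2, a drug metabolising P450), where 3.69% of all genes were called in either direction. In Atf4-/- 3 of 8 fell (Cyp1a2, Lect2 and Rgn), where 7.37% of all genes were called. The medians were -0.69 and -2.48 log2 against 0.02 and 0.08 over all genes tested. In WT 0 of 8 were called and the median was -0.10. Hepatocyte markers in general had medians of -0.66 after ASNase in Gcn2-/- (10 tested), close to that of the perivenous genes there, -0.57 in Atf4-/- (8 tested) and -0.19 in WT (10 tested), and 0 were called in each. Whether Slc1a2 moves with this group of genes was not tested.

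Slc7a6 (y+LAT2, chr8:106168857-106198706, plus strand), a light chain of Slc3a2 that exchanges cationic for neutral amino acids, was near the floor in 5 of 6 groups. It was at 0.196 FPKM (0.0303 to 0.362) in PBS-treated and 0.230 (0.0351 to 0.425) in ASNase-treated WT liver, at 0.0912 (0 to 0.187) and 0.306 (0.0692 to 0.542) in Gcn2-/- and at 0.145 (0.0157 to 0.274) and 1.90 (0.640 to 3.15) in Atf4-/- liver. The Atf4-/- ASNase interval was separate from those of all 5 other groups. The log2 difference of ASNase from PBS was 3.03 in Atf4-/-, 1.08 in Gcn2-/- and 0.16 in WT, and the Atf4-/- response exceeded that of WT by 2.87 (combined error 1.91).

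Slc7a1 (CAT1, chr5:148327410-148399904, minus strand), the widely expressed carrier of arginine and lysine that liver holds at low level, was likewise highest in Atf4-/- ASNase, with a smaller gap. It was at 0.166 FPKM (0 to 0.343) with PBS and 0.345 (0.0727 to 0.618) with ASNase in WT, 0.118 (0 to 0.271) and 0.258 (0.0277 to 0.489) in Gcn2-/-, and 0.0815 (0 to 0.227) and 1.11 (0.518 to 1.71) in Atf4-/-. The Atf4-/- ASNase interval was separate from 4 of the 5 others and overlapped that of WT ASNase. Its log2 difference of ASNase from PBS was 2.74 in Atf4-/-, 0.72 in Gcn2-/- and 0.74 in WT, and the Atf4-/- response exceeded that of WT by 1.997 (combined error 1.88). At 1.11 FPKM it is the member nearest above the level at which members were described singly, and Slc7a15, at no more than 0.654, is the nearest below it.

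Both carriers were highest in the group in which pancreatic acinar markers were highest as well, at 296 FPKM in sum, and the part of such RNA in both differences was not tested. The gene next to Slc7a6, Slc7a6os on the opposite strand with 2010 bases between their 3′ ends, was also highest there. It was at 9.21 FPKM in PBS-treated and 10.3 in ASNase-treated WT liver, at 9.43 and 10.9 in Gcn2-/- and at 9.98 and 17.9 in Atf4-/- liver. Its intervals overlapped in all groups, and its log2 difference of ASNase from PBS in Atf4-/- was 0.83.

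Slc7a2 (CAT2), whose low affinity form is the cationic amino acid carrier of hepatocytes, exceeded Slc7a1 by far in every group. It was at 95.3 FPKM with PBS and 116 with ASNase in WT, 128 and 78.7 in Gcn2-/-, and 115 and 131 in Atf4-/-, and all intervals overlapped. The log2 difference of ASNase from PBS was -0.70 in Gcn2-/- and 0.29 and 0.19 in WT and Atf4-/-.

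Among the heavy chains, Slc3a1 (rBAT, chr17:85028376-85064236, plus strand), which serves cystine and dibasic amino acid exchange, had lower values in WT than in either knockout. It was at 9.87 FPKM (3.32 to 16.4) in PBS-treated and 13.4 (4.89 to 21.9) in ASNase-treated WT liver, at 34.1 (14.0 to 54.1) and 49.4 (20.4 to 78.3) in Gcn2-/- and at 42.97 (15.0 to 70.9) and 46.7 (11.3 to 82.2) in Atf4-/- liver. All 4 knockout groups lay above both WT groups in value, yet the intervals were separate only between WT PBS and Gcn2-/- ASNase. Against WT under PBS the log2 difference was 1.78 in Gcn2-/- and 2.11 in Atf4-/-, and under ASNase it was 1.88 and 1.80. ASNase against PBS gave 0.43 in WT, 0.53 in Gcn2-/- and 0.12 in Atf4-/-, each smaller than the differences of either knockout from WT. Its known light chains were scarce, with Slc7a9 at no more than 0.246 FPKM and Slc7a13 at no more than 0.0141 in any group.

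Slc3a1 shares 601 exon bases with Prepl on the opposite strand, and the library kit does not mark strand. Prepl was at 9.02 FPKM with PBS and 9.63 with ASNase in WT, 14.4 and 21.4 in Gcn2-/-, and 17.0 and 18.3 in Atf4-/-, the same order of the 6 groups as Slc3a1 with a smaller gap. Reads in the shared bases cannot be told apart, and the locus to which the table assigns Slc3a1 is 61.9 kb long against 35.9 kb in GENCODE M21. Skeletal muscle markers also differed between the WT and knockout groups, in the opposite direction, and their part in this difference was not tested.

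Slc3a2 (CD98 heavy chain, 4F2hc), the partner of Slc7a5, Slc7a6, Slc7a7, Slc7a8 and Slc7a11, was at 16.5 FPKM (9.68 to 23.3) in PBS-treated and 19.9 (11.5 to 28.3) in ASNase-treated WT liver, at 12.5 (7.30 to 17.7) and 15.8 (9.25 to 22.3) in Gcn2-/- and at 14.3 (8.43 to 20.3) and 25.0 (14.4 to 35.7) in Atf4-/- liver. The ASNase value exceeded the PBS value in every strain, by log2 differences of 0.27, 0.33 and 0.80, and all intervals overlapped. Slc7a8 (LAT2), a neutral amino acid exchanger, stayed between 0.884 FPKM in Gcn2-/- PBS and 1.73 in Atf4-/- PBS with overlapping intervals. Slc7a5 (LAT1), the carrier of large neutral amino acids, was listed at 0.818 to 1.80 FPKM, but its intervals began at 0 and reached 14.1 to 23.9. The table assigns Slc7a5 a locus of 4435 kb, against 26.5 kb in GENCODE, so these values cannot be assigned to this gene alone. No direction is described for it singly, but it remains in the sums, counts and figures of the named transporters. Slc7a11 (xCT), the cystine and glutamate exchanger, was at no more than 0.0354 FPKM in any group.

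The Slc38a family held the most abundant carriers. Slc38a3 (SNAT3), which moves glutamine, asparagine and histidine with sodium against protons, was at 743 FPKM (260 to 1226) with PBS and 762 (264 to 1260) with ASNase in WT, 902 (270 to 1534) and 426 (158 to 694) in Gcn2-/-, and 781 (241 to 1321) and 507 (188 to 826) in Atf4-/-. Slc38a4 (SNAT4), a liver carrier of small neutral and cationic amino acids, was at 432 FPKM in PBS-treated and 533 in ASNase-treated WT liver, at 624 and 287 in Gcn2-/- and at 437 and 315 in Atf4-/- liver. For both genes the 2 knockouts under ASNase held the lowest values, and every pair of intervals overlapped. The log2 differences of ASNase from PBS were -1.08 and -1.12 in Gcn2-/-, -0.62 and -0.47 in Atf4-/-, and 0.04 and 0.30 in WT, none of which met the rule. The medians of the hepatocyte markers after ASNase were negative, at -0.66, -0.57 and -0.19 in Gcn2-/-, Atf4-/- and WT. Single markers went the other way, among them Tat in each strain, Fga and Cps1 in Gcn2-/- and Hnf4a in Atf4-/-. The part of these markers in the values of both carriers was not tested.

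Slc38a2 (SNAT2), the system A carrier of small neutral amino acids, was at 35.1 FPKM with PBS and 50.6 with ASNase in WT, 35.0 and 53.0 in Gcn2-/-, and 49.5 and 49.3 in Atf4-/-. WT PBS and Gcn2-/- PBS thus had the lower values and the other 4 groups lay close together, with log2 differences of ASNase from PBS of 0.52, 0.60 and -0.01 in WT, Gcn2-/- and Atf4-/- and all intervals overlapping. It lies 295 kb from Slc38a4 on chromosome 15, on the same strand, and the values of the pair went different ways in Gcn2-/- after ASNase.

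Slc38a10 was at 36.1 FPKM in PBS-treated and 32.7 in ASNase-treated WT liver, at 35.3 and 63.2 in Gcn2-/- and at 36.3 and 57.2 in Atf4-/- liver, so the knockouts under ASNase had the highest values (log2 differences 0.84 and 0.65) with overlapping intervals. Slc38a6 ranged from 19.9 FPKM in Atf4-/- PBS to 27.9 in Atf4-/- ASNase. Slc38a7 (SNAT7), which exports glutamine and asparagine from lysosomes, ranged from 5.98 in WT PBS to 10.9 in Atf4-/- ASNase. Slc38a9, the lysosomal arginine sensor of mTORC1, ranged from 0.977 in WT PBS to 1.43 in Gcn2-/- ASNase. The last 3 genes had overlapping intervals in all 15 pairs of groups with ratios of the highest to the lowest group of 1.40, 1.82 and 1.47.

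Of the proton coupled carriers, Slc36a1 (PAT1), which exports small amino acids from lysosomes, was at 6.99 FPKM with PBS and 7.40 with ASNase in WT, 7.74 and 7.86 in Gcn2-/-, and 8.16 and 4.34 in Atf4-/-. The Atf4-/- ASNase group was lowest, at a log2 difference of -0.90 from PBS, and its interval (2.43 to 6.25) overlapped all others. Slc36a4 (PAT4), a carrier of proline and tryptophan, ranged from 2.05 FPKM in WT PBS to 3.18 in Atf4-/- ASNase.

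The Slc43a family holds facilitated carriers. Slc43a1 (LAT3), which carries branched-chain amino acids, was at 2.83 FPKM in PBS-treated and 3.38 in ASNase-treated WT liver, at 5.29 and 5.99 in Gcn2-/- and at 4.37 and 4.73 in Atf4-/- liver, highest in the Gcn2-/- groups and with overlapping intervals. Slc43a2 (LAT4), with similar substrates, was lowest in Gcn2-/- PBS at 1.33 FPKM and highest in WT PBS at 3.80, and its lower bound was 0 in 5 groups. Slc43a3, a nucleobase carrier by function in spite of its family name, was at 18.5 FPKM with PBS and 17.3 with ASNase in WT, 8.09 and 11.5 in Gcn2-/-, and 19.9 and 22.5 in Atf4-/-. Both Gcn2-/- groups were lowest, with a log2 difference from WT of -1.18 under PBS and -0.59 under ASNase. In the same comparison under PBS the 7 endothelial markers had a median of -0.90 and the 8 Kupffer cell markers one of -0.66, against 0.06 over all genes tested. Under ASNase these medians were -0.44 and 0.34, against 0.05 over all genes tested. The part of these markers in the values of Slc43a2 and Slc43a3 was not tested. Slc43a3 lies 73.0 kb from Slc43a1 on chromosome 2, and the pair differed from WT in opposite directions in Gcn2-/-.

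Carriers of the Slc6a family couple transport to sodium and chloride. Slc6a8, the creatine carrier, was at 3.33 FPKM (0.773 to 5.88) in PBS-treated and 4.46 (1.77 to 7.15) in ASNase-treated WT liver, at 2.23 (0.812 to 3.64) and 9.82 (3.54 to 16.1) in Gcn2-/- and at 2.83 (0.903 to 4.76) and 7.84 (2.13 to 13.6) in Atf4-/- liver. The knockouts under ASNase held the highest values, and the Gcn2-/- intervals of PBS and ASNase met only between 3.54 and 3.64. The log2 difference of ASNase from PBS was 2.09 in Gcn2-/- (combined error 1.48), 1.44 in Atf4-/- (1.73) and 0.41 in WT (1.70).

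Slc6a9 (GlyT1, chr4:117834506-117875198, plus strand), the glycine carrier, was at 16.9 FPKM (1.62 to 32.2) with PBS and 23.6 (4.17 to 43.1) with ASNase in WT, 15.9 (1.98 to 29.8) and 9.90 (0 to 20.1) in Gcn2-/-, and 15.3 (3.04 to 27.5) and 2.51 (0 to 5.48) in Atf4-/-. Its log2 difference of Atf4-/- from WT under ASNase, -3.19, was the largest in size among the 29 members and 8 comparisons, but the intervals overlapped between 4.17 and 5.48. The log2 difference of ASNase from PBS was -2.56 in Atf4-/-, -0.68 in Gcn2-/- and 0.48 in WT. Slc6a9 shares 1429 exon bases with Ccdc24 and 511 with Gm17114, both on the opposite strand. Ccdc24 went from 1.78 FPKM in Atf4-/- PBS to 0.336 in Atf4-/- ASNase and Gm17114 from 3.24 to 0.232, and reads in the shared bases cannot be told apart. Of the erythroid markers only Alas2 was tested, and the other matched ones were at no more than 0.264 FPKM. Alas2 was at 37.2 FPKM with PBS and 31.4 with ASNase in WT, 27.6 and 6.52 in Gcn2-/-, and 36.6 and 3.13 in Atf4-/-. It was not called in any comparison, and its part in the values of Slc6a9 was not tested.

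Slc6a13 (GAT2), a hepatic carrier of GABA and taurine, was at 96.1 FPKM in PBS-treated and 96.5 in ASNase-treated WT liver, at 94.9 and 69.3 in Gcn2-/- and at 92.5 and 49.5 in Atf4-/- liver. Slc6a12 (BGT1), the betaine carrier, begins 5342 bases downstream of it on chromosome 6 and was at 40.4, 35.1, 47.2, 35.9, 34.9 and 35.8 FPKM in the same order of groups. Slc6a6, the taurine carrier, was at 15.7 FPKM with PBS and 17.7 with ASNase in WT, 21.3 and 12.8 in Gcn2-/-, and 20.7 and 10.3 in Atf4-/-. Both taurine carriers had their lowest values in the knockouts under ASNase, with log2 differences from PBS of -0.45 and -0.73 in Gcn2-/- and -0.90 and -1.01 in Atf4-/-, and with overlapping intervals throughout.

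The other 33 members reached no more than 0.654 FPKM in any group, 16 were listed at 0 in at least 1 group, and Slc7a12 and Slc38a8 were listed at 0 in all 6. Slc7a4 (at most 0.597), Slc38a1 (0.454) and Slc6a19 (0.305) were the highest of them after Slc7a15. None of the 33 had separate intervals in any pair of groups. All but Slc38a1 and Slc7a15 had a lower bound of 0 in every group, so their intervals could not separate. The share over all genes of such a level was not computed, and nothing is read from this count. In 9 of the 29 members described singly, exon bases are shared with another gene on the opposite strand in GENCODE M21, from 46 to 1429 bases.

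Differences of ASNase from PBS were positive in 21 and negative in 7 of the 28 named transporters in WT (median 0.18 log2), in 19 and 9 in Gcn2-/- (0.31) and in 16 and 12 in Atf4-/- (0.12). Over all 12758 genes with the status OK in every group and over 1 FPKM in any, 50.4%, 52.1% and 52.5% were positive in the same order of strains, with medians of 0.00312, 0.0273 and 0.0476. Differences over 1 log2 in size were seen in 0 of the 28 in WT, 6 in Gcn2-/- and 6 in Atf4-/-, against 4.87%, 15.4% and 25.2% of those genes, and nothing is read from these counts as particular to the transporters. The signs of Slc6a13 in WT, Slc36a1 in Gcn2-/- and Slc6a12 in Atf4-/-, all with differences of 0.0343 or less in size, turned when groups were rescaled by their median ratio. The responses in Gcn2-/- and Atf4-/-, which share no libraries, had the same sign in 19 of 28 transporters, 13 upward and 6 downward, and a Pearson correlation of 0.55 across genes, which are not independent replicates. Slc7a6 and Slc7a1 are among the 28 only through their Atf4-/- ASNase values. Slc7a5, whose values cannot be assigned to it alone, is included in these counts, medians and the correlation, as positive in each strain. Neither the share of equal signs nor the correlation was computed over all genes, so nothing is read from them as particular to the transporters.

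**Figure D5:**
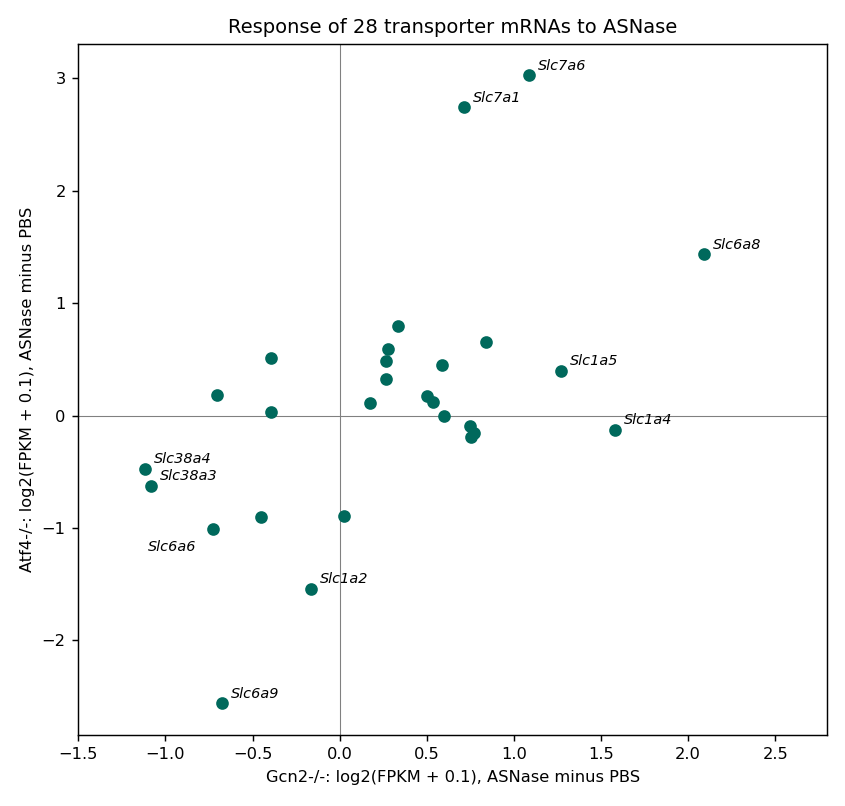
Difference of log2(FPKM + 0.1), ASNase minus PBS, of the 28 named transporters in Gcn2-/- (horizontal axis) and Atf4-/- (vertical axis), 1 point per gene, with genes beyond 1 on either axis named. Slc6a8 lies at 2.09 and 1.44, Slc1a4 at 1.58 and -0.13, Slc7a6 at 1.08 and 3.03, and Slc6a9 at -0.68 and -2.56.

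A list of 22 amino acid response targets that are no carriers was counted beside the transporters by the same rule. In WT, 2 of 17 tested rose after ASNase (Trib3, a pseudokinase, and Fgf21, a hepatokine) and none fell, with a median of 0.72 log2, where 0.881% of all genes were called in either direction. In Gcn2-/-, 1 of 14 rose (Ddit4, an inhibitor of mTORC1) and 1 fell (Fgf21), with a median of -0.03 (3.69% of all genes). In Atf4-/-, 7 of 15 rose (Asns, which makes asparagine, Trib3, Chac1, Atf5, Atf3, Nupr1 and Ddit4) and none fell, with a median of 2.08 (7.37% of all genes). Asns, Atf3 and Nupr1 in Atf4-/- exceeded 3 FPKM only with ASNase, as did Fgf21 in WT and Ddit4 in Gcn2-/-. Fgf21 in Gcn2-/- exceeded it only with PBS. These genes were tested only through the group where they were higher, so the counts and medians are descriptions and no independent support. Pancreatic acinar markers were called higher in the same comparisons, 3 of 4 tested in WT (median 5.48) and 4 of 6 in Atf4-/- (median 6.81), with 0 of 1 in Gcn2-/-. Those called, Pnlip, Ctrb1 and Prss2 in both strains and Cpa1 in Atf4-/-, exceeded 3 FPKM only with ASNase. The marker counts and medians are thus also descriptions and no independent support. The part of these markers in the values of the targets was not tested. Asns was at 2.50 FPKM in PBS-treated and 8.13 in ASNase-treated WT liver, at 4.77 and 5.94 in Gcn2-/- and at 0.591 and 20.1 in Atf4-/- liver. Under ASNase, Ddit4 was higher and Trib3 and Fgf21 lower in Gcn2-/- than in WT (17 tested, 4.41% of all genes called). Trib3, Chac1, Atf3 and Ddit4 were higher and Fgf21 lower in Atf4-/- than in WT (17 tested, 8.25%). Trib3, Chac1 and Atf5 were higher in Atf4-/- than in Gcn2-/- (15 tested, 298 of 9355 genes called). Fgf21 in the first of these comparisons exceeded 3 FPKM only in WT, and Chac1 in the last only in Atf4-/-. Under PBS, Ddit4 was lower in Gcn2-/- than in WT (11 tested, 1.04% of all genes), and only WT exceeded 3 FPKM there. No target was called in Atf4-/- against WT under PBS (10 tested, 1.12%).

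Of 11 amino acid and peptide carriers of other families, 5 or 6 were tested per comparison. Slc17a8, a vesicular glutamate carrier, was called lower than in WT under ASNase in Gcn2-/- (4.41% of all genes called) and in Atf4-/- (8.25%). It was at 2.47 FPKM with PBS and 5.14 with ASNase in WT, 1.55 and 0.652 in Gcn2-/-, and 1.24 and 0.251 in Atf4-/-. Only WT ASNase exceeds 3 FPKM, so Slc17a8 was tested only in comparisons holding that group, through its high value. None of the carriers tested in the other 6 comparisons was called. Among 12 enzymes of glutamine, glutamate and arginine metabolism, 11 were tested, and only Otc, the urea cycle enzyme that joins ornithine and carbamoyl phosphate, was called. It fell after ASNase from 339 to 96.5 FPKM in Gcn2-/- (3.69% of all genes called in either direction) and from 239 to 15.7 in Atf4-/- (7.37%). In WT PBS and WT ASNase it was at 283 and 234 FPKM. Under ASNase it was lower in Atf4-/- than in WT (8.25% called in either direction) and than in Gcn2-/- (2.29% called lower). The medians of the 11 enzymes after ASNase were -0.10 log2 in WT, -0.45 in Gcn2-/- and -0.40 in Atf4-/-.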

How the data were processed

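Liver RNA-Seq of 18 mice was used, in 6 groups formed from the sample labels. The authors prepared poly-A libraries with a kit that does not mark strand, mapped the reads to mm10 by TopHat, and estimated levels with Cuffdiff after assembly with Cufflinks. The deposited table gives FPKM, 1 value per gene and group pooled over 3 libraries, with interval bounds in the same unit and a status. The level of the interval is not given in the sources used here. All 18 value columns were mapped and 0 were left outside the map. FPKM carries no counts, so depth was not used and precision was taken from the intervals.

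From these values differences of log2(FPKM + 0.1) were computed in 8 comparisons with Python 3.11.15 and pandas 2.3.3, over all genes of the table, with the FPKM minimum of 3 and fold limit of 1.5 given above. The rules were run on simulated data that held only large changes in well expressed genes. That run does not show how they perform at low levels or for smaller differences. Alternatives were a pseudocount of 1, an FPKM minimum of 1 or none, the combined error, no condition on the intervals, and median-ratio scaling. Members with over 1 FPKM in any group were named singly, other genes only from 16 lists (12 of cell markers), singly where called or where the list is short, or by their shared exon bases. The members and lists were chosen with earlier results of these data known. Gene positions are from GENCODE M21 (GRCm38) and promoter windows from RefSeq (GRCm38.p6). Whether the 3 mice per group were littermates is not given, and growth notes and age labels give different upper ages.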

Additional observations from a re-analysis of the deposited data

Results flagged for a closer look

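The ASNase response of Slc1a4 in Gcn2-/- exceeded that in WT by 1.92 on the log2 scale, more than the combined error of its 4 intervals (1.67). Its FPKM was 1.18 in Gcn2-/- PBS and 3.72 in Gcn2-/- ASNase, against 1.63 in WT PBS and 1.27 in WT ASNase. The difference has no p-value, since each group holds 1 pooled value, and with a pseudocount of 1 it was 1.33. Slc1a4 exceeded the minimum of 3 FPKM only in Gcn2-/- ASNase, so it was tested only through the value that makes the difference.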

How the results depend on the processing

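No paired analysis was possible because the table holds 1 pooled value per group, and for the same reason leaving out each replicate in turn could not be run. Of 62 alternative values, 37 kept their result, 24 moved and 1 lost its call, the Slc1a4 response (1.33 with a pseudocount of 1, where the count of members whose response differs in Gcn2-/- was 0 in place of 1). With an FPKM minimum of 1, and likewise with no minimum, the members called were 2 after ASNase in Atf4-/-, 1 in Atf4-/- against WT under ASNase, 3 in Atf4-/- against Gcn2-/- under ASNase, and 2 for the response in Atf4-/-. The added members, Slc7a6 and Slc7a1, exceed 1 FPKM only in Atf4-/- ASNase. With no minimum 2 members differed in response in Gcn2-/-, where 568 genes of the whole table were called. The counts named before stood beside 797, 935, 374 and 774 genes called with no minimum. Shares of the genes tested were not computed for that setting. With the combined error the counts were 1 in Gcn2-/- and 1 in Atf4-/- against WT under PBS, 2 after ASNase in Gcn2-/-, and 1 in each knockout against WT under ASNase. With no condition on the intervals, 1 of 20 members was called in each knockout against WT under PBS. There 181 of 8920 genes were called in Gcn2-/- (93 by the main rule) and 180 of 9039 in Atf4-/-. After ASNase the members called were 2 of 21 in Gcn2-/- (607 of 9218 genes) and 2 of 22 in Atf4-/- (1160 of 9485, 699 by the main rule). Against WT under ASNase they were 2 of 22 in Gcn2-/- (723 of 9423) and 2 of 22 in Atf4-/- (1276 of 9577). For Atf4-/- against Gcn2-/- under ASNase they were 2 of 23 (581 of 9355). For the responses they were 2 of 22 in Gcn2-/- (783 of 9523) and 2 of 22 in Atf4-/- (1123 of 9698). None of these counts is read as particular to the transporters. Median-ratio scaling, with factors of 0.974 to 1.03, moved no count of members. After ASNase in WT 0 members were called under every alternative.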
